A study of Mus musculus with 6 samples.

Results

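The genes described here encode subunits of voltage-gated calcium channels: the pore genes Cacna1a, Cacna1c, Cacna1d, Cacna1g and Cacna1h, the alpha2delta genes Cacna2d1, Cacna2d2 and Cacna2d3, and the beta genes Cacnb2 and Cacnb3. They form a list of 10 named genes, and a probe set was taken for a gene where the array annotation gives that symbol alone. By this rule 9 of the 10 genes had a probe set, of 18193 genes in all, with 22 probe sets of 45037. Cacnb3 has none under this rule and was not analysed here. Where a gene has several probe sets, its value is that of the probe set brightest on average over the 6 arrays (mean of log2 signals), and the others serve as a check.

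The study compared iLarge T BMSC with naïve Large T BMSC, with 3 Affymetrix mouse genome arrays in each group. Naïve Large T BMSC are adherent marrow stromal cells of H-2Kb-tsA58 mice (the transgenic Immortomouse strain, a CBA/ca and C57Bl/10 hybrid), in which a major histocompatibility promoter drives a large T antigen of SV40 that works at 33°C and makes cells go on dividing. Both groups carried this transgene, and the labels give 3 passages for both. iLarge T BMSC were cells of this kind given intravenously to male C57Bl/6J mice aged 6 to 8 weeks, 24 h after occlusion of the middle cerebral artery for 60 min. The infarcted hemisphere was taken 14 days after the cells were given, and the cells that it released were grown at 33°C. Naïve Large T BMSC were cultured at 33°C as well. Each array held RNA pooled from 3 hemispheres or from 3 sets of naïve cells, so the p-values measure the spread between pools. The arrays are called iLarge T replicates 2, 4 and 6 and naïve replicates 1, 3 and 5, as the submitters numbered them.

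A voltage-gated calcium channel opens when the membrane depolarizes and lets calcium into the cell. The pore is a single large alpha1 protein. L-type (Cacna1c, Cacna1d) and P/Q-type (Cacna1a) pores open at strong depolarization and are held at the membrane by a beta subunit inside the cell and an alpha2delta subunit on its outer face, whereas T-type pores (Cacna1g, Cacna1h) open near the resting potential and can work without either. L-type channels start contraction in heart and smooth muscle, P/Q-type channels release transmitter at synapses, and T-type channels are also known from smooth muscle and from dividing cells. The alpha2delta protein of Cacna2d1 is the target of the drug gabapentin and a receptor of thrombospondins.

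The values are linear MAS5 signals, 1 intensity per probe set, with the trimmed mean of every array set to 2500 by the authors. Median signals were 315 to 450.2 on the iLarge T arrays and 308 to 414 on the naïve arrays. The 40th percentile of each array, 183 to 299.6, was used as a limit of near background, since no detection calls were used here. Naïve replicates 3 and 5 correlated at 0.892 (Pearson r of log2 signals across probe sets), whereas naïve replicate 1 stood apart from both at 0.829 and 0.831. Correlations were 0.845 to 0.863 within iLarge T and 0.789 to 0.824 between the groups. Groups were compared on log2 signals with limma, in which probe sets of like brightness inform each other's spread, with Benjamini-Hochberg adjustment over all 45037 probe sets. Called genes changed at least 2-fold with an adjusted p under 0.05. Log2 fold changes were taken as iLarge T minus naïve, and standard errors and 95% intervals are those of limma.

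Cacna2d1 rose in iLarge T BMSC and was the only channel subunit called among the 9 measured genes. Its signal was 5424 ± 816 in iLarge T and 232 ± 267 in naïve BMSC (SD, n = 3 each). The L-type pore gene Cacna1c and the T-type pore gene Cacna1g also had higher signals on every iLarge T array than on any naïve array, but neither passed the test. The other 6 genes overlapped between the groups. Thus 1 of 9 genes (11.1%) was called higher, against 3.54% of all 18193 genes, and 3 of 9 lay above all naïve arrays without overlap, against 14.5% of all genes. None lay below all naïve arrays, against 13.1%. With 9 genes these counts are a description. No subunit was called lower by limma, against 3.26% of all genes, and 0 were lower at an unadjusted p under 0.05. By the methods' t-test on log2 signals, as run here, 0 were called in either direction. This run called only 7 higher and 7 lower of all 18193 genes. The study reports far more changed genes at the same thresholds, so this run does not reproduce its test. The median log2 fold change of the 9 genes was 1.21, and that of all genes 0.06.

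**Figure D1:**
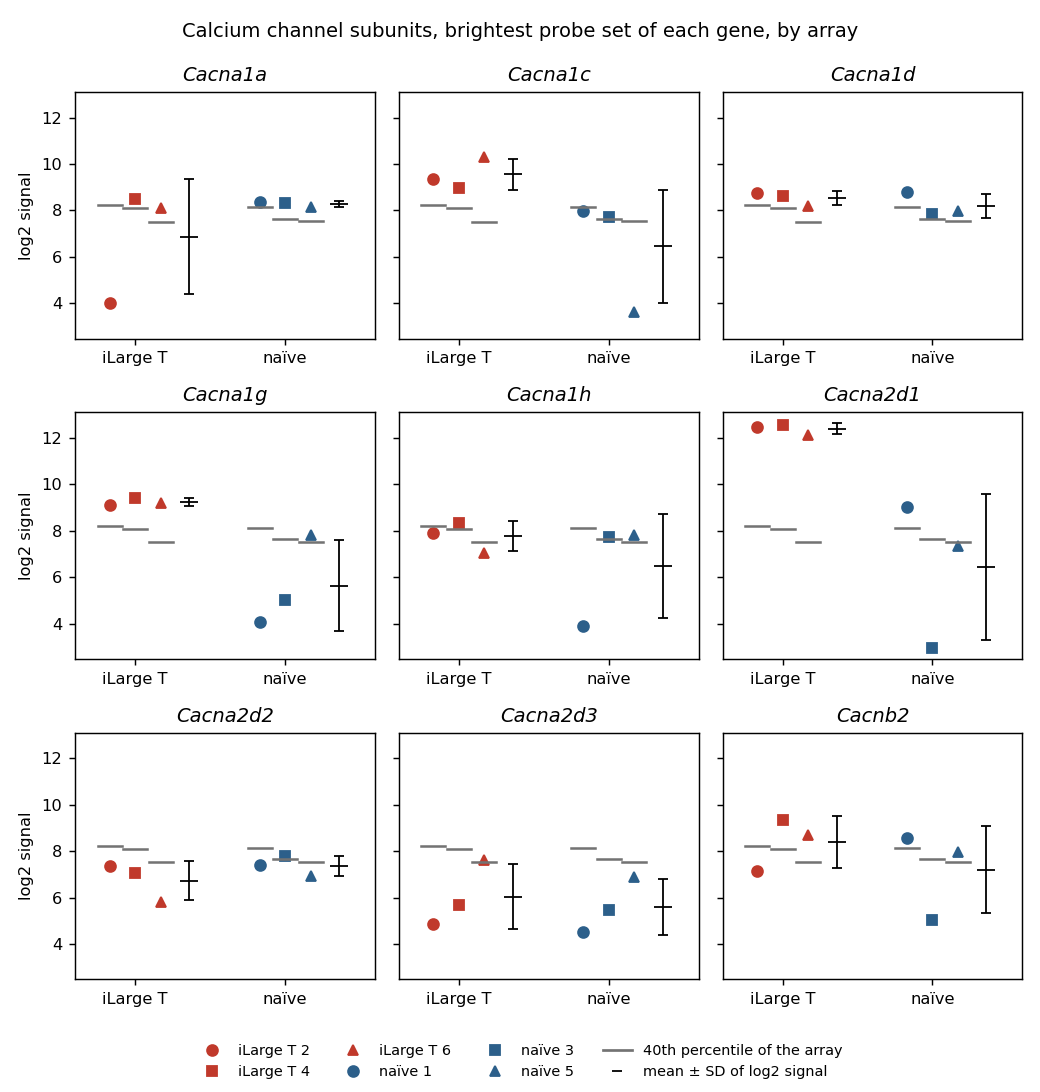
Log2 signal (vertical axis) of the brightest probe set of each measured channel subunit on the 3 iLarge T and 3 naïve arrays, with the 40th percentile of each array as a grey line and the mean ± SD of each group beside the points. Cacna2d1 is far above its line on all 3 iLarge T arrays, Cacna1c and Cacna1g are above theirs on the same 3 arrays, and the other 6 genes overlap between the groups.

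Alpha2delta subunits raise the number of channels at the cell surface. At the brightest of its 5 probe sets, 1433643_at, Cacna2d1 had signals of 5703, 6063 and 4505 on iLarge T replicates 2, 4 and 6, against 526, 7.79 and 161 on naïve replicates 1, 3 and 5. All 3 iLarge T arrays were far above the brightest naïve array, which was replicate 1, the array that stood apart. The log2 fold change was 5.95 (standard error 1.24, 95% interval 3.18 to 8.72, adjusted p = 0.0245 from limma). Because naïve replicates 3 and 5 lay under the near-background limit, background enters the size of this change. It was 4.32 (adjusted p = 4.99e-06 from limma) once every signal under the limit was set to the limit. That step replaces measured low signals with a constant of each array and so reduces their spread. P-values after it are therefore not comparable with those on the signals as measured, and the smaller one is no added support.

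Another 3 probe sets of Cacna2d1 were called as well. At 1440397_at the signals were 2348, 2493 and 1607 on iLarge T replicates 2, 4 and 6, against 519.9, 80.2 and 18.8 on naïve replicates 1, 3 and 5, and the log2 fold change was 4.52 (standard error 1.04) at an adjusted p of 0.0381. At 1449999_a_at, they were 1912, 1175 and 431 in iLarge T, against 47.7, 97.0 and 45.7 in naïve BMSC, at an adjusted p of 0.0234. Since all 3 naïve arrays were near background, the difference is given as at least 4.53-fold. At these and the brightest probe set iLarge T replicate 6 had the lowest of the 3 iLarge T signals. At 1425861_x_at, a probe set of a class in which some probes can match other transcripts, the signals were 603, 760.2 and 755 in iLarge T against 44.7, 38.2 and 3.95 in naïve BMSC, a difference of at least 3.21-fold (adjusted p = 0.0318). The lower bounds set the mean of the iLarge T log2 signals against the limit of each naïve array, and no interval is given for them. The adjusted p-values are those of limma on the signals as measured, and the bounds themselves were not tested.

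The fifth probe set of Cacna2d1, 1441608_at, was near background on all 6 arrays, with signals of 13.3, 29.5 and 29.7 in iLarge T and 136, 25.2 and 33.6 in naïve BMSC. It was not called (log2 fold change -1.10, 95% interval -3.65 to 1.44, adjusted p = 0.703). As the probe sets are annotated to 1 gene and share the arrays, they are not replicates of each other. Over the 9 genes, 4 of 22 probe sets (18.2%) were called higher, all of Cacna2d1, against 2.47% of all probe sets, and 0 were called lower, against 2.27% (0 at an unadjusted p under 0.05 in limma and 0 by the methods' t-test). Without overlap, 7 of 22 lay above all naïve arrays, against 11.6% of all probe sets, and 0 below, against 11.4%.

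**Figure D2:**
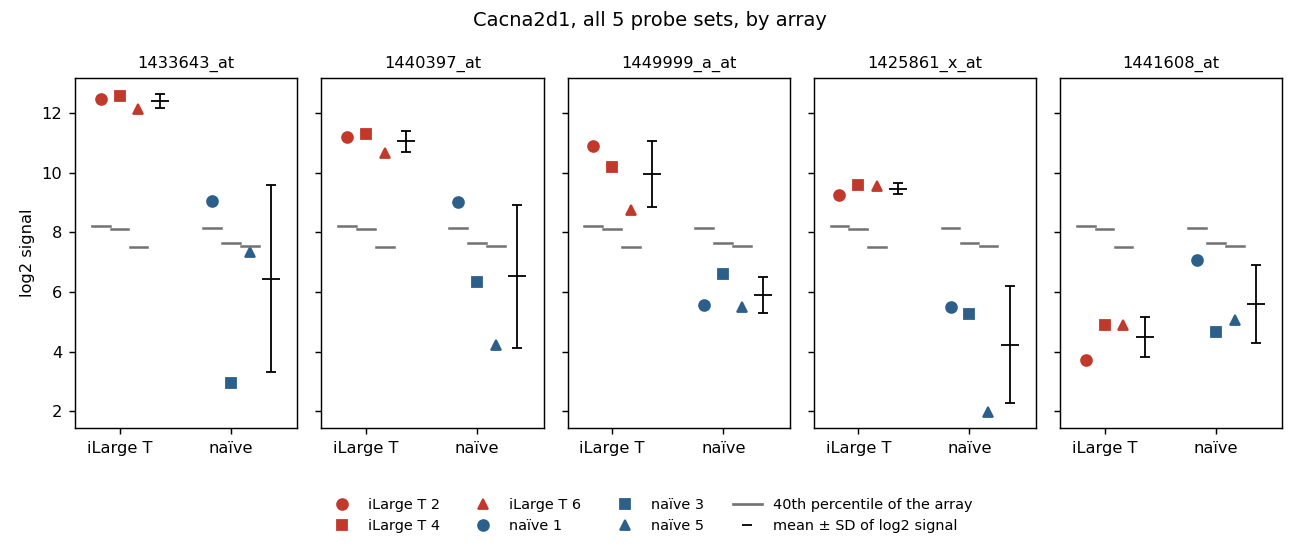
Log2 signal (vertical axis) of the 5 probe sets of Cacna2d1 on the 3 iLarge T and 3 naïve arrays, from the brightest at the left to the dimmest at the right, with the 40th percentile of each array in grey and the mean ± SD of each group. At 4 probe sets the groups do not overlap, and at the fifth all 6 arrays lie under their line.

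The call of Cacna2d1 was lost with any iLarge T array left out. Its adjusted p was 0.106 without iLarge T replicate 2, 0.109 without replicate 4 and 0.0943 without replicate 6, with log2 fold changes of 5.91, 5.86 and 6.08. The call held without naïve replicate 1 (7.25, adjusted p = 0.00165), 3 (4.21, adjusted p = 0.00643) or 5 (6.39, adjusted p = 0.0414). Without replicate 1 both remaining naïve arrays were near background, so 7.25 is a difference from background and no measured size. The number of its probe sets called was 0, 0 and 1 without iLarge T replicates 2, 4 and 6, and 4, 2 and 1 without naïve replicates 1, 3 and 5.

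The other alpha2delta genes were not called. Cacna2d2, best known from cerebellar Purkinje neurons, had signals of 164, 132 and 55.5 on iLarge T replicates 2, 4 and 6, against 168, 219.7 and 121 on naïve replicates 1, 3 and 5. The groups overlapped, and 5 of the 6 signals were near background (log2 fold change -0.64, 95% interval -2.71 to 1.43, adjusted p = 0.803 from limma). Cacna2d3, a subunit of sensory and auditory neurons, had signals of 29.2, 50.6 and 195 in iLarge T, against 22.6, 43.7 and 118 in naïve BMSC, with only that of iLarge T replicate 6 above the limit. Its log2 fold change was 0.44 (95% interval -2.26 to 3.13, adjusted p = 0.908). Both intervals are wide, so these arrays do not show that the 2 genes were equal in the groups. The remaining probe sets of Cacna2d2 were not called (adjusted p = 0.850 and 0.982).

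Because Cacna2d1 was called and Cacna2d3 was not, the windows around their transcription starts are shown side by side. Each holds 250 bases before and 50 after the start, from RefSeq on build GRCm38.p6. That of Cacna2d1 is chr5:15934441-15934740 on the plus strand and that of Cacna2d3 chr14:29721815-29722114 on the minus strand. Capitals mark the GC box, spelt GGGCGG and searched on both strands with overlapping matches counted.
Cacna2d1: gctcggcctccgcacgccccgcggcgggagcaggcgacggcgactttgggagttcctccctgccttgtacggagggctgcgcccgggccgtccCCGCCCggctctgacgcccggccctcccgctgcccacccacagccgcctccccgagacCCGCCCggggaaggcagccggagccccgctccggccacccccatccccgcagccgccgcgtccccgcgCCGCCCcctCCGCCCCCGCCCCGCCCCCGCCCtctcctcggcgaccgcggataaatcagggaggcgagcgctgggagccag
Cacna2d3: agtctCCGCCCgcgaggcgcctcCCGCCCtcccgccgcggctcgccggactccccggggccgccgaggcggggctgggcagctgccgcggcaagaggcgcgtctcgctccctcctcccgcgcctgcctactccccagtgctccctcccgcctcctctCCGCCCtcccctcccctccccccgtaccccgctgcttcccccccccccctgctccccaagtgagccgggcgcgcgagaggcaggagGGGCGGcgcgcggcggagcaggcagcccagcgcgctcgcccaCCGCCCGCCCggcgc

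Both windows are rich in G and C, at 80.0% for Cacna2d1 and 81.3% for Cacna2d3, against a median of 52.7% over 32851 windows of all genes. They hold 42 and 41 CpG dinucleotides, against a median of 7. The GC box occurs 7 times in the window of Cacna2d1 and 6 times in that of Cacna2d3, and 10.7% of all windows hold it 3 or more times. The window of Cacna2d2 has a similar composition (75.7% G and C, 43 CpG) with 1 GC box. The letters TATAAA, present on either strand in 13.6% of all windows, are in none of the 3.

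Among the pore genes, Cacna1g encodes a T-type channel of pacemaking and smooth muscle cells. It had signals of 559, 683 and 579 on iLarge T replicates 2, 4 and 6, against 16.8, 32.2 and 227 on naïve replicates 1, 3 and 5. The 3 iLarge T arrays were close to each other and above the limit, while 2 of 3 naïve arrays were under it. The log2 fold change of 3.61 (standard error 1.07, 95% interval 1.21 to 6.00) had an unadjusted p of 0.00736 and an adjusted p of 0.0965 in limma, so Cacna1g was not called. With low signals raised to the near-background limit its log2 fold change was 1.37 (adjusted p = 0.0855 from limma). Cacna1g has no second probe set as a check.

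Cacna1c encodes the main L-type pore of heart and smooth muscle. Its brightest probe set gave 656, 508 and 1264 on iLarge T replicates 2, 4 and 6, against 254, 213 and 12.6 on naïve replicates 1, 3 and 5. The groups did not overlap, but the naïve arrays differed widely, and the log2 fold change of 3.09 (standard error 1.15, 95% interval 0.52 to 5.67) was not called (adjusted p = 0.188 from limma). The other probe set had signals of 545, 156 and 594 in iLarge T against 99.1, 47.5 and 13.01 in naïve BMSC. There all 3 naïve arrays and iLarge T replicate 4 were near background. The mean of the iLarge T log2 signals was 1.69-fold above the limits of the naïve arrays. That probe set was not called (adjusted p = 0.152), so no least difference is given. With low signals raised to the near-background limit the log2 fold change of Cacna1c was 1.75, with an adjusted p of 0.0402 from limma. That step reduces the spread of the low naïve signals, so this p-value is not comparable with 0.188.

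Cacna1d, the L-type pore of hair cells and cardiac pacemaker cells, was above the limit on all 6 arrays and much alike in both groups. Its signals were 434, 399.8 and 295 on iLarge T replicates 2, 4 and 6, and 440.4, 229 and 250.2 on naïve replicates 1, 3 and 5. The log2 fold change was 0.34 with the narrowest interval of the 9 genes (95% interval -1.10 to 1.78, adjusted p = 0.859 from limma), which still allows a change of over 2-fold in either direction. Its other probe set was near background on all 6 arrays.

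Cacna1h, the second T-type pore, had signals of 241, 322 and 134 in iLarge T and 14.9, 216 and 223 in naïve BMSC. The groups overlapped, and naïve replicate 1 alone was far below the rest (log2 fold change 1.28, 95% interval -1.41 to 3.98, adjusted p = 0.668 from limma). Without that array the log2 fold change was -0.01. That array and iLarge T replicates 2 and 6 were near background. With low signals raised to the limit the log2 fold change of Cacna1h was 0.13. The other probe set was near background on all 6 arrays.

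Cacna1a, the P/Q-type pore of presynaptic terminals, had signals of 16.2, 363 and 272 on iLarge T replicates 2, 4 and 6, against 327, 321 and 282 on naïve replicates 1, 3 and 5. Here iLarge T replicate 2 alone was low, and the log2 fold change of -1.40 (95% interval -4.06 to 1.26, adjusted p = 0.625 from limma) became 0.02 without it. Of the other 3 probe sets none was called, and the brightest of them gave 1.75 (adjusted p = 0.443). These 2 probe sets thus differ in sign, and Cacna1a has no settled direction.

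Beta subunits bind the pore from inside and raise its current. Cacnb2, the main beta subunit of the heart, had signals of 143, 649 and 417 on iLarge T replicates 2, 4 and 6, against 379, 33.2 and 249.7 on naïve replicates 1, 3 and 5. The groups overlapped (log2 fold change 1.21, 95% interval -1.21 to 3.62, adjusted p = 0.647 from limma), and iLarge T replicate 2 and naïve replicate 3 were near background. Leaving out 1 array gave 0.14 (without naïve replicate 3) to 1.89 (without naïve replicate 1). The second probe set gave 1.15 (adjusted p = 0.698).

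**Figure D3:**
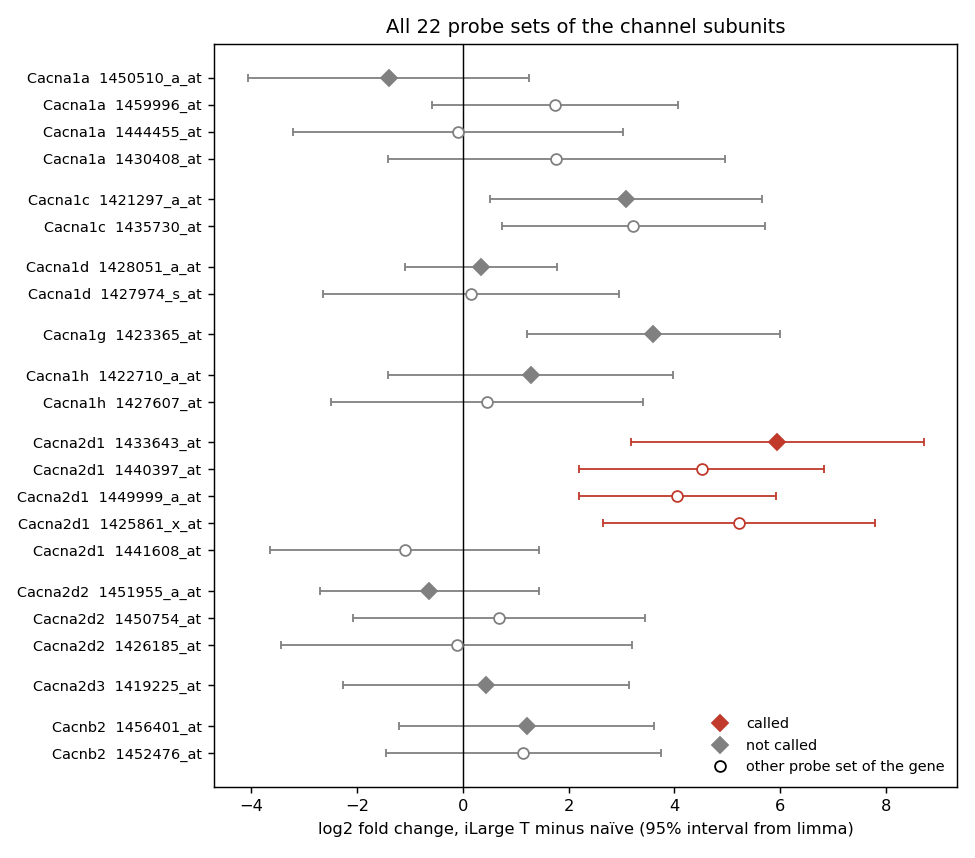
Log2 fold change, iLarge T minus naïve (horizontal axis), with the 95% interval from limma for all 22 probe sets of the channel subunits. Filled diamonds are the brightest probe set of a gene, open circles its others, and red marks called probe sets. The 4 red intervals all belong to Cacna2d1, and the intervals of Cacna1c and Cacna1g also lie above 0 before adjustment.

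Of 16 other pore, alpha2delta, beta and gamma genes, 15 were measured. None was called in either direction by limma or by the methods' t-test on log2 signals, and 0 had an unadjusted p under 0.05. Their log2 fold changes ran from -1.34 (Cacnb1) to 1.85 (Cacng1), with a median of 0.02. Only Cacng7, which encodes a gamma subunit better known as a partner of AMPA receptors, did not overlap between the groups, at 1531, 1598 and 1364 in iLarge T against 1079, 1342 and 960.2 in naïve BMSC. It was not called (log2 fold change 0.42, standard error 0.35, adjusted p = 0.616), and its second probe set, with a log2 fold change of 2.42, was not called either (adjusted p = 0.314).

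Thrombospondins are secreted matrix proteins, some of which bind the alpha2delta protein of Cacna2d1 when synapses form. Of 6 thrombospondin and partner genes, all measured, Thbs2 was called higher and none was called lower (0 of 6 had an unadjusted p under 0.05 in that direction in limma), with a median log2 fold change of 0.97. Thbs2 had signals of 24179, 24408 and 45214 on iLarge T replicates 2, 4 and 6, against 2778, 2833 and 2659 on naïve replicates 1, 3 and 5. The groups were far apart and all arrays were bright (log2 fold change 3.44, standard error 0.29, adjusted p = 0.000577). All 3 of its probe sets were called, and the call held with each array left out in turn.

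Regulators act on the channel from inside the cell. Of 13 such genes 9 were measured, and Cbarp, a protein that binds beta subunits and lowers channel activity, was called higher, with none lower (0 of 9 at an unadjusted p under 0.05 in limma). The median log2 fold change was 0.58. Cbarp had signals of 1654, 3229.9 and 3995 in iLarge T, against 364, 741 and 797 in naïve BMSC, without overlap (log2 fold change 2.21, standard error 0.47, adjusted p = 0.0282). The called probe set of Cbarp is of the class in which some probes can match other transcripts. The second probe set of Cbarp overlapped between the groups and was not called (1.44, adjusted p = 0.490). The call of Cbarp was lost without iLarge T replicate 4 (adjusted p = 0.133) or 6 (0.124) or naïve replicate 3 (0.0694) or 5 (0.0524).

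Calcium that has entered is pumped out, stored and released by other proteins. Of 25 genes of store release, store entry and pumps, 24 were measured, 1 was called higher and 0 lower in limma, with 3 higher and 2 lower at an unadjusted p under 0.05 and a median log2 fold change of 0.58. The called gene was Slc8a3, a sodium-calcium exchanger of brain and skeletal muscle, with signals of 1460.04, 1358 and 734 in iLarge T, against 34.8, 53.7 and 197 in naïve BMSC. The groups did not overlap (log2 fold change 3.98, standard error 0.83, adjusted p = 0.0249), its second probe set was not called (adjusted p = 0.344), and the call was lost without iLarge T replicate 2 (adjusted p = 0.112), 4 (0.128) or 6 (0.0727) or naïve replicate 3 (0.0787). Naïve replicates 1 and 3 were near background for Slc8a3, so background enters the size of its change. With low signals raised to the limit the log2 fold change was 2.35 (adjusted p = 0.00603 from limma, with the spread of the low naïve signals reduced). The endoplasmic calcium pump Atp2a2 was bright and much alike, at 44063, 42162 and 46521 in iLarge T against 44436, 33312 and 33607 in naïve BMSC (log2 fold change 0.27, 95% interval -0.24 to 0.77, adjusted p = 0.628). It was singled out after its values were seen.

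Of 10 calcium-activated channel genes 9 were measured, and Kcnmb1, the beta subunit of the large-conductance potassium channel in smooth muscle, was called higher, with none lower (0 of 9 at an unadjusted p under 0.05 in limma). The median log2 fold change was 0.81. Kcnmb1 had signals of 713, 297 and 1833 in iLarge T, against 26.3, 11.0 and 21.4 in naïve BMSC. All naïve arrays were near background. The mean of its iLarge T log2 signals was 3.34-fold above the limits of the naïve arrays. The adjusted p of 0.0192 is that of limma on the signals as measured. The signal of iLarge T replicate 4 was only just above its own limit of 274. The call was lost without iLarge T replicate 2 (adjusted p = 0.0759) or 6 (0.0974) or naïve replicate 3 (0.0615), and with low signals raised to the limit (0.0850). The second probe set was not called (adjusted p = 0.629). The pore gene of that channel, Kcnma1, had signals of 269.8, 207 and 136 in iLarge T and 509.98, 332 and 34.2 in naïve BMSC, which overlapped (adjusted p = 0.974). This was the brightest of 5 probe sets of Kcnma1. There each of the 3 iLarge T signals fell under the limit of its array, as did that of naïve replicate 5. Kcnma1 too was singled out after its values were seen.

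Over these 5 lists, 4 of 63 measured genes (6.35%) were called higher and 0 lower in limma, against 3.54% and 3.26% of all genes, and 0 were called by the methods' t-test on log2 signals.

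**Figure D4:**
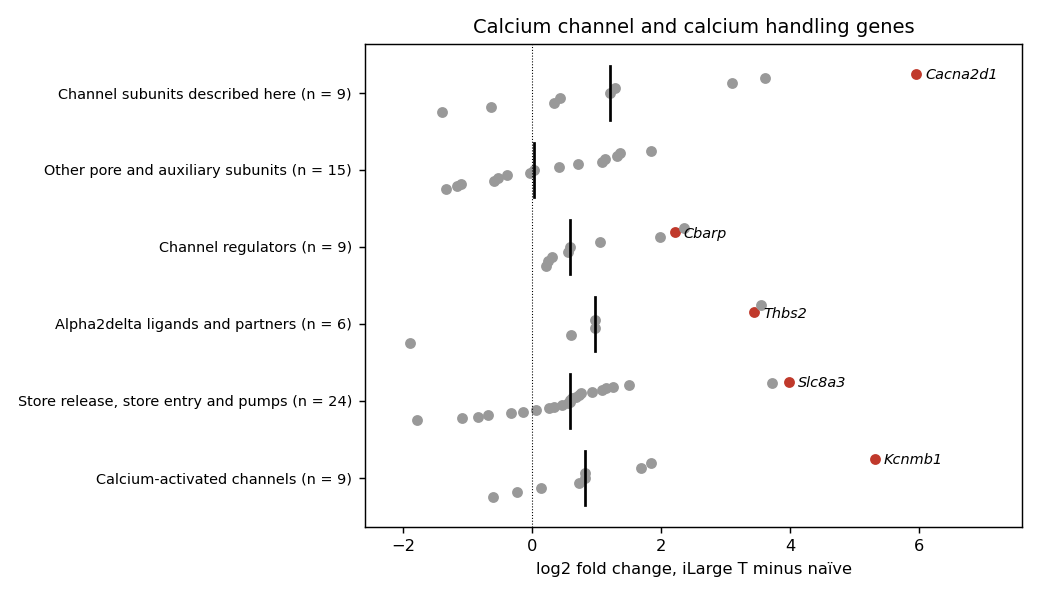
Log2 fold change, iLarge T minus naïve (horizontal axis), of each measured gene in the list of channel subunits described here and in 5 lists of related genes, with called genes in red and named and the median of each list as a black bar. Each list but that of the other pore and auxiliary subunits holds 1 called gene, all of them higher in iLarge T BMSC, and the medians lie between 0.02 and 1.21.

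Markers of other cells were read beside these results, as RNA from more cells of a type cannot be told apart from more RNA per cell in such arrays. Of 10 stromal markers 9 were measured, and 8 were above the near-background limit on all 3 iLarge T arrays and 8 on all 3 naïve arrays, with Vcam1 called lower and 0 called higher. Of 9 markers of smooth muscle cells and pericytes, 3 were called higher (Rgs5, Cspg4 and Pdgfrb), against 3.54% of all genes, and 0 lower. At an unadjusted p under 0.05 in limma 8 were higher and 0 lower, against 7901 of 45037 probe sets in either direction. The summed signal of the 9 was 189342 to 228422 on the iLarge T and 37049.8 to 159693 on the naïve arrays, the highest being naïve replicate 1. Most of it was Acta2, which overlapped between the groups and was not called, at 169488, 131975 and 124639 in iLarge T and 151611, 35112 and 31483 in naïve BMSC (adjusted p = 0.206). The smooth muscle marker Myh11 was at 445, 499 and 2853 in iLarge T against 97.1, 95.04 and 80.4 in naïve BMSC (adjusted p = 0.0650 from limma), the pericyte marker Kcnj8 was near background on all 6 arrays, and Abcc9 on all 3 naïve and 2 of 3 iLarge T arrays. Of 9 neuronal markers 2 were called higher (Stmn2 and Nefm) and 0 lower. At an unadjusted p under 0.05 in limma 3 were higher (Stmn2, Nefm and Snap25) and 2 lower (Map2 and Slc17a7). Without overlap, 4 lay above all naïve arrays and 1 below, against 14.5% and 13.1% of all genes. Slc17a7 had signals of 57.5, 66.2 and 32.8 in iLarge T against 370.2, 199 and 180.3 in naïve BMSC. It was near background on all 3 iLarge T and 2 of 3 naïve arrays. Map2 had a log2 fold change of -1.52. The sums of the 9 were 22232 to 33703 in iLarge T and 1779 to 11593 in naïve BMSC, of which Stmn2 alone gave 19934 to 30251 in iLarge T and 166 to 7896.5 in naïve BMSC. Rbfox3, the marker of mature neurons, overlapped at 471, 251 and 289 in iLarge T and 405, 164 and 230.5 in naïve BMSC. Skeletal muscle markers summed to 4023 to 6930.4 in iLarge T and 799 to 2070.5 in naïve BMSC. Most of the iLarge T sums was Acta1, which was called higher, at 6262, 3319 and 3491 on iLarge T replicates 2, 4 and 6. Its signals were 987, 243 and 312 on naïve replicates 1, 3 and 5. Of the 5 markers, 3 had a positive and 2 a negative log2 fold change. No iLarge T array had the myogenic factors Myod1 and Myog above the near-background limit. The part of these cells in the level of Cacna2d1 was not tested.

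The summed signals of endothelial markers and of macrophage and microglia markers were highest on 1 array. These sums on iLarge T replicate 6 were 35399.7 and 28883, against 3828 to 4907 and 4055 to 5391 on the other iLarge T arrays, and 6760.3 to 9789 and 1924 to 10449 on the naïve arrays. The defining markers Pecam1 and Ptprc were at 3560 and 4440.5 on iLarge T replicate 6 and at most 580.2 and 206 on the others of that group. On the naïve arrays both were near background, at most 62.2 and 161. Cd68 alone gave 9873 and 8396 of the macrophage and microglia sums on naïve replicates 3 and 5, and 16962 on iLarge T replicate 6. Single markers differed from the sums: Tek was at 1300 on iLarge T replicate 6 and at 5703 to 9080 on the naïve arrays, and Cx3cr1 was at 164 on iLarge T replicate 6, against 452 and 428 on iLarge T replicates 2 and 4. Of 6 endothelial markers Cdh5 was called higher and Tek lower, and of 6 macrophage markers Csf1r was called higher. Of 5 astrocyte markers 0 were called, with sums of 1208 to 5311 in iLarge T and 796 to 989 in naïve BMSC, and of 4 measured oligodendrocyte markers 0 were called, with sums of 566 to 1972 in iLarge T and 1369.6 to 1761 in naïve BMSC. In both lists 0 markers had an unadjusted p under 0.05 in limma. Cacna2d1 itself was lowest in its group on iLarge T replicate 6 (4505 at the brightest probe set, with 5703 and 6063 on the other iLarge T arrays). Its log2 fold change without replicate 6 was 6.08, where the call was lost (adjusted p = 0.0943). The part of these cells in its level was not tested either.

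The genes whose log2 signals followed Cacna2d1 most closely over the 6 arrays were Arid3a, a DNA-binding protein, Mark1, a kinase of microtubule proteins, Cep170, a centrosomal protein, Meg3, an imprinted non-coding RNA, and Taf4b, a subunit of the general transcription factor TFIID. Their Pearson r over 6 arrays was 0.984, 0.984, 0.983, 0.981 and 0.977, the highest of 9097 genes with a mean signal at or above the median. All 5 were higher on every iLarge T array than on any naïve array, as Cacna2d1 was, and r over 6 arrays in 2 groups holds that difference. As Cacna2d1 was near background on naïve replicates 3 and 5, r also holds its background values there. The probe sets of Mark1 and Meg3 are of the class in which some probes can match other transcripts, and both were near background on naïve replicate 3. Mark1 and Meg3 were called higher, and Arid3a, Cep170 and Taf4b were not (adjusted p = 0.210, 0.118 and 0.103 in limma).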

How the data were processed

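Gene expression was measured in 3 iLarge T and 3 naïve arrays. The deposited intensity signals come from MAS5, for which the study names GeneChip Operating Software 1.2, with RNA pooled from 3 sets per array. The trimmed mean is 2500 on each array. Arrays have no read depth, and their number limits the precision. Of 45101 probe sets, 64 controls were left out. Of the other 45037, 34945 have 1 symbol, 932 several and 9160 none in the annotation used. The RefSeq table held all 9 measured subunits under the same identifier and symbol.

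Log2 signals were fitted with limma 3.58.1 (lmFit, then eBayes with a trend on intensity, in R 4.3.3) and adjusted by Benjamini-Hochberg. The fit was also run on simulated data, whose spread followed the intensity trend that the fit assumes. It cannot show whether that trend holds for a given probe set on these arrays. Tables and figures used Python 3.11.15, pandas 2.3.3, numpy 2.4.6 and matplotlib 3.10.9. Named are all subunits, called genes of 5 lists of related genes, and subunits outside the list whose groups do not overlap. The members and lists were chosen with earlier results of these data known. As alternatives, each array was left out in turn, arrays were quantile normalized, 16 was added before the log, signals under the 40th percentile of an array were set to it, and probe sets above it on fewer than 3 arrays were dropped. Others were limma with no trend, the methods' t-test (on log2 or linear signals), other probe sets for a gene and other fold thresholds. The t-test as run here called far fewer genes than the study reports.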

Additional observations from a re-analysis of the deposited data

How the results depend on the processing

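No paired analysis was possible because the groups share no replicate number, and neither the labels nor the methods say which arrays belong to the same set of experiments. Of the subunits, Cacna2d1 kept its direction under all 15 alternatives and its call under 9. Its most variable probe set is also its brightest, so that alternative only repeats the main result. Because its groups do not overlap, leaving out an array could not turn its direction. Cacna2d1 was not called by the methods' t-test as run here, on log2 signals (5.95, adjusted p = 0.262) or linear signals (4.55, adjusted p = 0.0729). Nor was it called by limma without the intensity trend (5.95, adjusted p = 0.160). Leaving out 1 array gave 4.21 to 7.25, the highest against naïve arrays that were both near background. The count of subunits called higher was 0 under these 3 tests, 2 with signals under the 40th percentile set to it (Cacna1c joined Cacna2d1), and 0 to 1 with an array left out. Setting low signals to the limit reduces their spread, so the count of 2 is not comparable with the others. None was called lower under any alternative. With an array left out, Cacna1c ran from 1.69 (without naïve replicate 5) to 3.86, Cacna1g from 2.82 to 4.70, Cacnb2 from 0.14 to 1.89, Cacna1a from -2.22 to 0.024, Cacna1h from -0.0086 to 1.94 and Cacna2d3 from -0.34 to 1.07. Cacna1a was also turned with low signals raised (0.0012), the mean over its probe sets (0.51) and its most variable probe set (1.77), and Cacna2d2 with low signals raised (0.13). Cacna2d2 and Cacna2d3 gave no value without dim probe sets.

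Of the related genes, those called higher numbered 0 by the t-test on log2 or linear signals, 1 without the trend, 2 with the mean over probe sets and 1 to 6 with an array left out, and those called lower 0 to 2 with an array left out. All genes called higher numbered 7, 17 and 85 under the t-test on log2 signals, on linear signals and without the trend, 971 with low signals raised and 250 to 1298 with an array left out. Those called lower numbered 7, 36 and 48 under the first 3 of these and 232 to 1214 with an array left out, where both counts were highest without naïve replicate 1. Cacna2d2 and Cacna2d3 were near background on 5 of 6 arrays each, and the intervals of the subunits with overlapping groups do not exclude changes of over 2-fold.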

Other observations

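Thbs1, another thrombospondin and a gene of the list of alpha2delta partners, was chosen here after its values were seen. It had signals of 128351, 108132 and 91458.5 on iLarge T replicates 2, 4 and 6, against 111836, 2479 and 2887 on naïve replicates 1, 3 and 5. Naïve replicate 1 thus lay within the range of the iLarge T arrays, and the gene was not called (log2 fold change 3.54, standard error 1.17, adjusted p = 0.134 from limma). At the brightest probe set of Cacna2d1 the same array was also the highest of the naïve arrays, at 526, but far below the iLarge T arrays. The smooth muscle marker Cnn1 was at 9080, 958 and 7894 in iLarge T and at 4650 on naïve replicate 1, against 50.4 and 10.1 on naïve replicates 3 and 5. The cause of these differences between naïve arrays was not tested.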
